A study of Homo sapiens with 24 samples.

Results

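The starting label of each mRNA was compared between HEK293T cells carrying CRISPR guides against CNOT3 (sgCNOT3) and cells carrying non-targeting guides (sgNT). It was read from the first time points of a SLAM-seq chase. Genes were taken when their T-to-C conversion was above 0 in all 8 libraries collected at 0 h and 1 h, 4 of them from sgCNOT3 and 4 from sgNT cells. This left 11281 of 19798 genes (57%). HEK293T is a line derived from human embryonic kidney. In both groups cells were transduced with the lentiviral vector lentiCRISPR_v2, which carries Cas9 and a guide, were selected in puromycin, and were labelled with 75 µM 4-thiouridine for 24 h with a change of medium every 3 h, after which 10 mM UTP was added for 0 or 1 h. The labels record the sgCNOT3 cells as a knockout of CNOT3, and no clone is named for either group, whose sgNT cells are recorded as controls. The series holds 24 libraries in all, 2 of each genotype at each of 6 chase times. A conversion ratio gives no RNA amount, so neither the loss of CNOT3 mRNA nor the identity of the cells could be checked, and read depth is unknown.

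4-Thiouridine is built into new RNA in place of uridine, and iodoacetamide treatment makes it read as C in sequencing. The share of converted reads or bases after a long pulse is set by how much of an mRNA was made during the pulse, so that a transcript with fast turnover carries more label than one with slow turnover. CCR4-NOT is the main complex that shortens poly(A) tails in the cytoplasm, with CNOT1 as the scaffold, CNOT6, CNOT6L, CNOT7 and CNOT8 as deadenylases, and CNOT3 in the module that also holds CNOT2.

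The guides define the groups and are shown for that reason, with the protospacer adjacent motif next to each CNOT3 site in capitals. Both CNOT3 guides had a single match with an NGG motif in GRCh38, in coding parts of exon 5 (chr19:54143665-54143687, plus strand) and exon 8 (chr19:54145699-54145721, minus strand) of the 18 exons of the gene. The non-targeting guides had 0 such matches. The labels do not say which library received which guide.
CNOT3-sgRNA #1: gagggaccaaatcaagacatGGG
CNOT3-sgRNA #2: tcttgcggatggcgtcaacgAGG
NT sgRNA #1: atcgtttccgcttaacggcg
NT sgRNA #2: tagagatatccgatcgtggt

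The library medians of the genotypes lay close together, while the upper end of the distributions lay apart. The median conversion over the tested genes was 36.4% and 33.3% in sgCNOT3 before the chase and 34.6% and 34% after 1 h, against 36.02% and 32.2% in sgNT before it and 34.1% and 31.8% after 1 h. The mean difference of 1.03 percentage points was within the spread of the libraries (exact permutation test within chase times, two-sided p = 0.389, of 36 ways). From 0 h to 1 h the mean of the library medians changed by -0.569 points in sgCNOT3 and -1.12 points in sgNT. The 95th percentile was 77.8% and 72.7% in sgCNOT3 before the chase and 66.7% and 67.1% after 1 h, against 59.8% and 58.2% in sgNT before it and 58.01% and 58.6% after 1 h. All 4 sgCNOT3 libraries lay above all 4 sgNT libraries here, and the p of 0.0556 is the smallest this design allows. Between 460 and 894 genes were above 70% in a sgCNOT3 library, against 177 to 250 in a sgNT library. Over the whole table, 672 to 758 genes were listed at 100% in a sgCNOT3 library, against 408 to 422 in a sgNT library. Genes are no independent replicates. Spearman correlations over them were 0.71 to 0.745 within sgCNOT3, 0.696 to 0.735 within sgNT and 0.526 to 0.602 between them. The plot of conversion by library shows this longer upper tail.

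**Figure D1:**
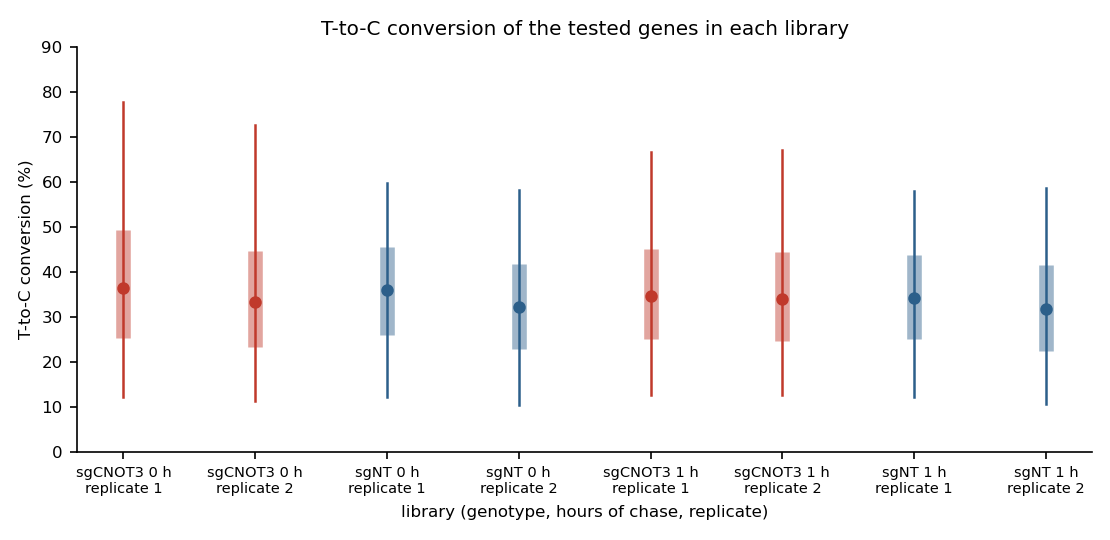
T-to-C conversion (%) over the 11281 tested genes in each library at 0 h and 1 h of chase. Points are medians, boxes span the 25th to the 75th percentile and lines the 5th to the 95th; the lines of the sgCNOT3 libraries end between 66.7% and 77.8% and those of sgNT between 58.01% and 59.8%.

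Single genes differed in both directions. With chase time as a covariate, 835 genes (7.4% of those tested) carried less label in sgCNOT3 than in sgNT and 683 (6.05%) carried more (limma on log2(conversion + 0.343 percentage points), Benjamini-Hochberg adjusted p under 0.05). At an unadjusted p under 0.05 the counts were 1602 and 2002. The lower genes had a median of 22.3% in sgCNOT3 and 36.9% in sgNT, with a median log2 difference of -0.68. The higher genes had a median of 41.6% in sgCNOT3 and 24.8% in sgNT, with a median log2 difference of 0.73. Over all tested genes the median log2 difference was 0.08. A change of at least 2-fold was seen in 165 lower genes (19.8%) and 127 higher genes (18.6%), and one of at least 4-fold in 12 and 13. The 4 sgCNOT3 values lay below all 4 sgNT values in 822 of the lower genes, and above them in 636 of the higher genes. Over all tested genes this was so in 12.3% and 11.9%. All called genes had the same sign at 0 h and at 1 h, but both times had entered the calls.

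**Figure D2:**
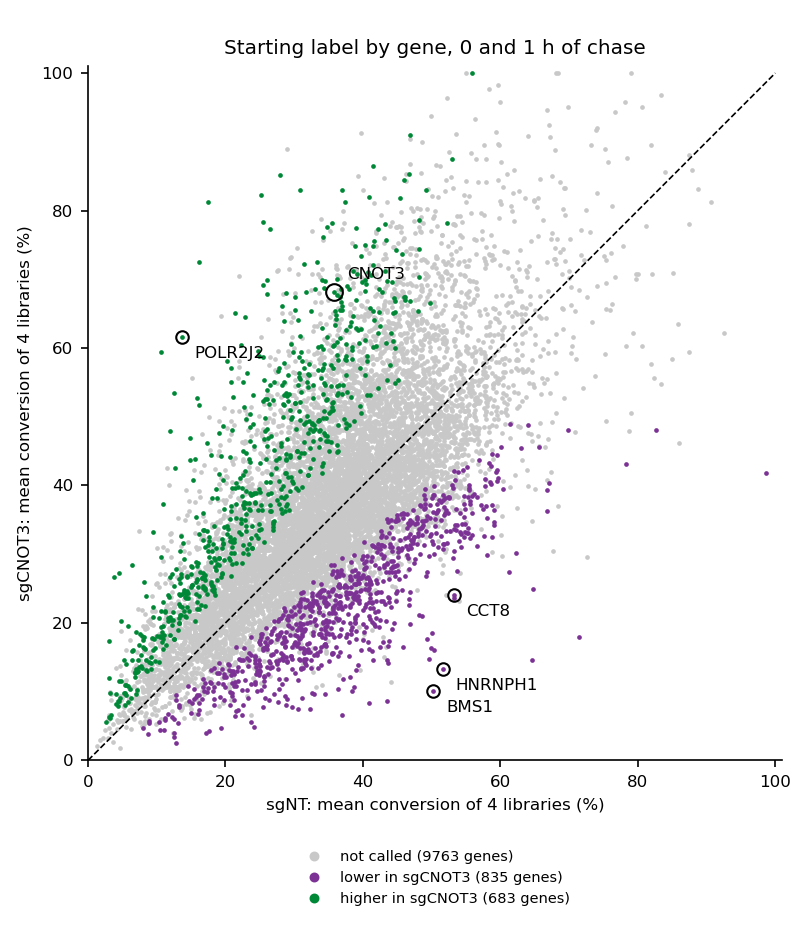
Mean conversion (%) of each tested gene over the 4 sgCNOT3 libraries (vertical axis) and the 4 sgNT libraries (horizontal axis), with genes lower in sgCNOT3 in purple (835), higher in green (683) and others in grey; the dashed line marks equal conversion. CNOT3 lies above the line at 68.1% in sgCNOT3 and 35.8% in sgNT, and BMS1, HNRNPH1 and CCT8 lie far below it.

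No gene had a genotype difference that changed between 0 h and 1 h past the threshold (0 genes in limma, smallest adjusted p = 0.591, with 606 genes at an unadjusted p under 0.05). With only the 0 h libraries or only the 1 h libraries, 2 against 2, limma called 0 genes. The counts depended on each library. Without sgCNOT3 0 h replicate 1 there were 509 lower and 263 higher genes, and without its replicate 2 there were 540 and 403. Without sgCNOT3 1 h replicate 1 there were 443 and 229, and without its replicate 2 there were 464 and 260. Without sgNT 0 h replicate 1 there were 380 and 324, and without its replicate 2 there were 450 and 255. Without sgNT 1 h replicate 1 there were 424 and 376, and without its replicate 2 there were 560 and 388. No gene called in the full comparison turned its sign in any of these fits, which share libraries with it. The split of calls also moved with scaling: 55.0% of calls were lower as measured, 63.2% with library medians set equal, and 68.7% after quantile normalization.

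CNOT3 mRNA (ENSG00000088038.20, GRCh38 chr19:54137749-54155681) was itself among the higher genes. Its conversion was 62.1% and 80.95% in sgCNOT3 before the chase and 60.6% and 68.97% after 1 h, against 34.7% and 31.5% in sgNT before it and 34.6% and 42.5% after 1 h (log2 difference 0.92 ± 0.14 (SE), adjusted p = 0.0119). The groups did not overlap. At 2 h the sgCNOT3 replicates of CNOT3 lay far apart, at 67.7% and 14.5%. With depth unknown, its values are uncertain. CNOT2, whose protein pairs with CNOT3 in the complex, carried less label, at 24.5% and 19.7% in sgCNOT3 before the chase and 18.01% and 17.3% after 1 h, against 33.5% and 30.1% in sgNT before it and 30.03% and 31.3% after 1 h (log2 difference -0.65 ± 0.12 (SE), adjusted p = 0.0172). Its call was lost without sgCNOT3 1 h replicate 1 or 2, sgNT 0 h replicate 1 or sgNT 1 h replicate 1. The other 10 of the 12 measured genes of the list, CNOT4 and the tankyrase-binding TNKS1BP1 included, did not pass the test. CNOT11 (log2 difference 0.28 ± 0.07, adjusted p = 0.0504) and CNOT4 (-0.37 ± 0.10, adjusted p = 0.0587) missed it narrowly, and in both the sgCNOT3 and sgNT values did not overlap. Among the others the deadenylase CNOT7 had 46.9% and 46.1% in sgCNOT3 before the chase and 46.2% and 43.7% after 1 h, against 47.01% and 47.4% in sgNT before it and 43.7% and 46.6% after 1 h, values that overlap (log2 difference -0.01 ± 0.08, adjusted p = 0.928). The scaffold CNOT1 had 39.4% and 34.05% in sgCNOT3 before the chase and 40.8% and 27.1% after 1 h, against 44.5% and 42.9% in sgNT before it and 39.1% and 33.95% after 1 h (log2 difference -0.19 ± 0.14, adjusted p = 0.398).

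Outside the complex, 5 of 57 measured mRNA decay factors were lower and 4 higher (8.77% and 7.02%), near the shares over all genes, and 3 to 5 and 1 to 3 with a library left out (fewest lower without sgCNOT3 1 h replicate 1 or sgNT 0 h replicate 1, 1 higher in 4 of the 8 fits). LSM1, a subunit of the LSM1-7 ring that binds deadenylated mRNA before decapping, had the strongest decrease, with 22.96% and 16.6% in sgCNOT3 before the chase and 30.3% and 30.2% after 1 h, against 67.1% and 62.5% in sgNT before it and 67.4% and 61.9% after 1 h (log2 difference -1.40 ± 0.17 (SE), adjusted p = 0.00671). In sgCNOT3 the label of LSM1 then rose, to 49.2% and 45.5% at 4 h, against 45.1% and 44.1% in sgNT. The decapping scaffold EDC4 (log2 difference -0.94) and the exosome subunit EXOSC5 (-0.91) were also lower at 0 h and 1 h, the second not without sgCNOT3 1 h replicate 1. NANOS1, an RNA-binding protein that recruits CCR4-NOT to its targets, was higher, with 75% and 100% in sgCNOT3 before the chase and 83.3% and 82.1% after 1 h, against 23.1% and 18.2% in sgNT before it and 50% and 20.7% after 1 h (log2 difference 1.71 ± 0.30 (SE), adjusted p = 0.0165). This call was lost without sgNT 0 h replicate 1. At 8 h the NANOS1 replicates lay far apart, at 90.5% and 5.1% in sgCNOT3 and 0% and 100% in sgNT. With depth unknown, its values are uncertain. The Argonaute genes AGO1 (log2 difference 0.78) and AGO4 (0.77), whose proteins carry microRNAs, were higher too, and kept the call in 3 and 1 of the 8 fits with a library left out.

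Among the 12 genes lower in sgCNOT3 with the largest moderated t, the label was down about as strongly at 0 h as at 1 h. RDH11 (ENSG00000072042.13), a retinal reductase of the endoplasmic reticulum, had 9.67% and 10.9% in sgCNOT3 before the chase and 9.61% and 10.1% after 1 h, against 41.1% and 39.02% in sgNT before it and 34.7% and 38.99% after 1 h (log2 difference -1.89 ± 0.10 (SE), adjusted p = 0.00156). BMS1 (ENSG00000165733.8), a GTPase of small ribosomal subunit assembly, had 9.99% and 8.03% in sgCNOT3 before the chase and 11.2% and 11.2% after 1 h, against 53.4% and 52.4% in sgNT before it and 44.9% and 50.4% after 1 h (log2 difference -2.28 ± 0.14 (SE), adjusted p = 0.00156). GRPEL2 (ENSG00000164284.15), a nucleotide exchange factor of the mitochondrial Hsp70 chaperone, had 6.62% and 8.62% in sgCNOT3 before the chase and 8.99% and 9.34% after 1 h, against 42.9% and 38.2% in sgNT before it and 41.6% and 40.9% after 1 h (log2 difference -2.25 ± 0.13 (SE), adjusted p = 0.00156). In all 3 the 4 sgCNOT3 values stayed at or below 11.2% and the sgNT values at or above 34.7%. PUS3, a pseudouridine synthase that modifies tRNA, had the lowest fitted difference of the 12, with 8.36% and 6.25% in sgCNOT3 before the chase and 4.91% and 7.05% after 1 h, against 38.8% and 39.8% in sgNT before it and 37.6% and 31.8% after 1 h (log2 difference -2.44 ± 0.16 (SE), adjusted p = 0.00167). TMEM223 had 5.61% and 5.20% in sgCNOT3 before the chase and 4.28% and 4.38% after 1 h, against 26.5% and 28.9% in sgNT before it and 23.7% and 17.5% after 1 h (log2 difference -2.22 ± 0.14 (SE), adjusted p = 0.00156). COA6, which helps deliver copper to cytochrome c oxidase, had 15.97% and 17.9% in sgCNOT3 before the chase and 14.5% and 16.1% after 1 h, against 46.3% and 53.3% in sgNT before it and 52.3% and 49.3% after 1 h (log2 difference -1.62 ± 0.10 (SE), adjusted p = 0.00156). In PUS3, TMEM223 and COA6 every sgCNOT3 library lay below every sgNT library. DHRS1, a short-chain dehydrogenase, averaged 14.1% in sgCNOT3 and 43.7% in sgNT (log2 difference -1.62 ± 0.12 (SE), adjusted p = 0.00265).

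The 12 genes higher in sgCNOT3 with the largest moderated t were of mixed kinds. MT-ND4L, a complex I subunit encoded by mitochondrial DNA, had 37.3% and 32.6% in sgCNOT3 before the chase and 37.6% and 36.4% after 1 h, against 18.03% and 17.4% in sgNT before it and 16.1% and 15.6% after 1 h (log2 difference 1.08 ± 0.10 (SE), adjusted p = 0.00447). HINT2, a mitochondrial nucleotide hydrolase, had 20.6% and 21.6% in sgCNOT3 before the chase and 21.9% and 19.3% after 1 h, against 9.98% and 9.22% in sgNT before it and 8.38% and 9.99% after 1 h (log2 difference 1.13 ± 0.12 (SE), adjusted p = 0.00529). SLC25A23, which carries ATP-magnesium and phosphate across the inner mitochondrial membrane, had 26.8% and 29.6% in sgCNOT3 before the chase and 29.6% and 27.01% after 1 h, against 16% and 14.2% in sgNT before it and 15.5% and 14.4% after 1 h (log2 difference 0.89 ± 0.10 (SE), adjusted p = 0.00636). In these 3 genes the replicates were close and the levels in sgCNOT3 were moderate, with no value above 37.6%. In others the sgCNOT3 values were high and more scattered. AHRR, a repressor of the aryl hydrocarbon receptor, had 84.4% and 68.6% in sgCNOT3 before the chase and 56.2% and 70.4% after 1 h, against 37.6% and 36.7% in sgNT before it and 33.8% and 27.9% after 1 h (log2 difference 1.03 ± 0.12 (SE), adjusted p = 0.00671). CELSR2, an adhesion receptor of the cadherin family, had 75% and 71.4% in sgCNOT3 before the chase and 66.7% and 63.6% after 1 h, against 32.3% and 23.5% in sgNT before it and 18.2% and 28% after 1 h (log2 difference 1.46 ± 0.16 (SE), adjusted p = 0.00595). The zinc finger gene ZNF552 had 80% and 92.6% in sgCNOT3 before the chase and 48% and 53.8% after 1 h, against 38.3% and 40.9% in sgNT before it and 28.3% and 24.5% after 1 h (log2 difference 1.03 ± 0.10 (SE), adjusted p = 0.00503). For ZNF552 the 0 h values exceeded the 1 h values in both genotypes. At 2 h the sgCNOT3 replicates of these genes lay far apart. They were 71.4% and 11.5% for AHRR, 60% and 0% for CELSR2 and 64.5% and 7.98% for ZNF552. The second of these libraries also had the lower median over all genes. With depth unknown, the values of these genes are uncertain. POLR2J2 had the largest fitted difference of the 12 (log2 difference 2.10 ± 0.24 (SE), adjusted p = 0.00636), with 71.4% and 59.3% in sgCNOT3 before the chase and 36.4% and 79.3% after 1 h, against 13.9% and 16.1% in sgNT before it and 11.1% and 13.6% after 1 h. It is one of several near-identical copies of an RNA polymerase II subunit gene, so reads may have been split between copies and its value is uncertain. SLC43A2, an amino acid transporter, averaged 40.9% in sgCNOT3 and 15.3% in sgNT (log2 difference 1.37 ± 0.16 (SE), adjusted p = 0.00624), and KRTCAP2, a subunit of the oligosaccharyltransferase that glycosylates proteins, averaged 26.7% in sgCNOT3 and 13.5% in sgNT (log2 difference 0.97 ± 0.11 (SE), adjusted p = 0.00636). ENSG00000285645, which the table gives without a gene name, averaged 21.8% in sgCNOT3 and 11.3% in sgNT (log2 difference 0.93 ± 0.11 (SE), adjusted p = 0.00636). It ends at the same base as HINT2 on the same strand (GRCh38 chr9, position 35812960), so the 2 genes may rest on the same reads. All 24 genes kept their call in each of the 8 fits with a library left out. They were chosen by moderated t in the same libraries, so this is no independent test.

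**Figure D3:**
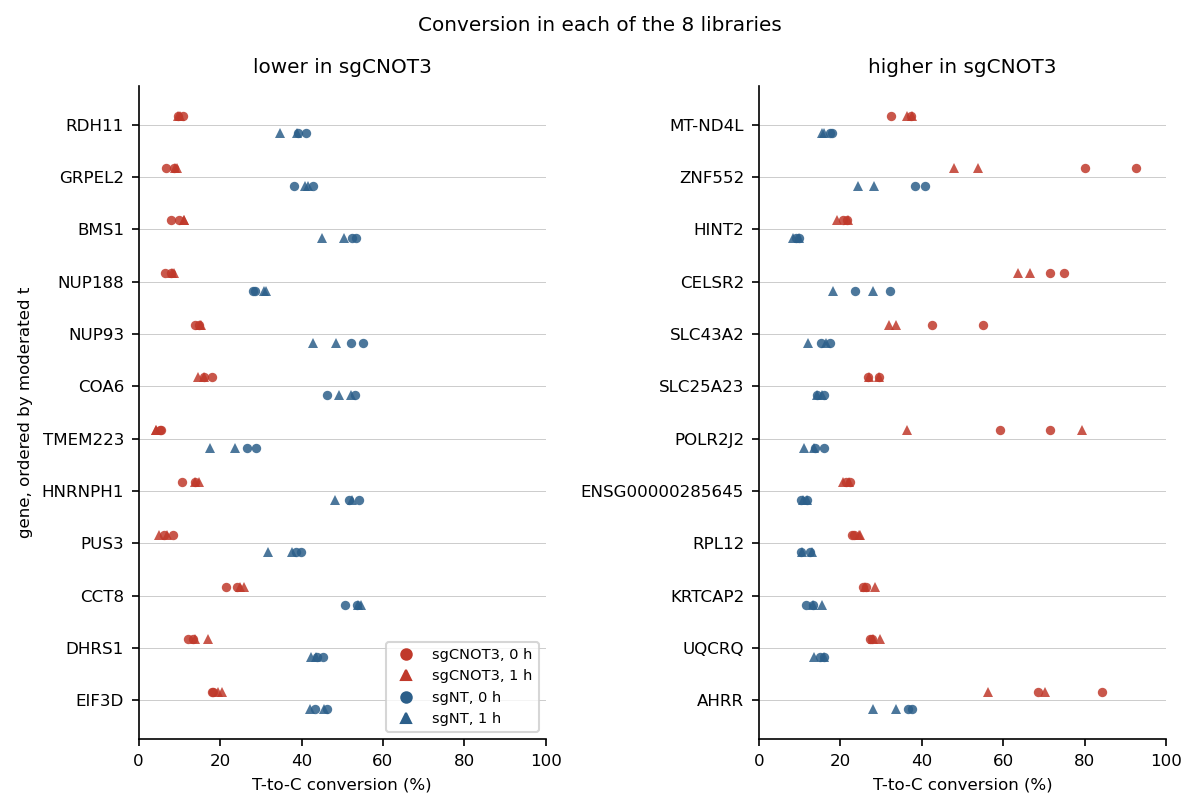
T-to-C conversion (%) of the 12 lower (left) and 12 higher (right) genes with the largest moderated t, in each of the 8 libraries; red marks sgCNOT3, blue sgNT, circles 0 h and triangles 1 h. In all 24 genes the 4 sgCNOT3 values and the 4 sgNT values do not overlap, and ZNF552, POLR2J2 and AHRR show the widest scatter among sgCNOT3 libraries.

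Genes of protein folding were among those with the most lower calls. In the list of the chaperonin TRiC, prefoldin and tubulins, 13 of 30 measured entries were lower (43.3%, against 7.4% of all genes) and 1 was higher (3.33%, against 6.05%), with a median log2 difference of -0.30. The tubulin cofactor TBCE is in the table under more than 1 identifier and gave 2 of the 13. TRiC folds actin and tubulin, and its subunit genes CCT2, CCT3, CCT4, CCT5, CCT7 and CCT8 were lower. CCT8 had 21.3% and 24.1% in sgCNOT3 before the chase and 24.9% and 25.8% after 1 h, against 53.7% and 50.8% in sgNT before it and 54.6% and 53.9% after 1 h (log2 difference -1.14 ± 0.08 (SE), adjusted p = 0.00265). CCT7 had 14.03% and 14.1% in sgCNOT3 before the chase and 14.96% and 14.7% after 1 h, against 33.1% and 30.2% in sgNT before it and 32.8% and 29.3% after 1 h (log2 difference -1.10 ± 0.10 (SE), adjusted p = 0.00365). The replicates of these genes differed by a few points and the genotypes by far more. TBCA, a tubulin folding cofactor, averaged 23.1% in sgCNOT3 and 43.8% in sgNT (log2 difference -0.92 ± 0.09 (SE), adjusted p = 0.00459). The only member above the threshold in the other direction was the tubulin gene TUBB4B, at 51.4% and 51.01% in sgCNOT3 before the chase and 47.1% and 52.9% after 1 h, against 41.04% and 35.7% in sgNT before it and 41.7% and 40.2% after 1 h (log2 difference 0.35 ± 0.09 (SE), adjusted p = 0.0480). Its call was lost in all 8 fits with a library left out, in which 8 to 13 members were lower (fewest without sgCNOT3 1 h replicate 1).

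Subunits of the proteasome, which degrades ubiquitylated proteins, showed a like count. Of 34 measured members 12 were lower (35.3%) and 3 higher (8.82%), with a median log2 difference of -0.245. PSMD3, of the 19S lid, had 18.2% and 19.95% in sgCNOT3 before the chase and 18.3% and 21% after 1 h, against 44.4% and 43.4% in sgNT before it and 41.2% and 40.7% after 1 h (log2 difference -1.12 ± 0.09 (SE), adjusted p = 0.00321). PSMA1, of the 20S outer ring, averaged 23.1% in sgCNOT3 and 44.8% in sgNT (log2 difference -0.95 ± 0.11 (SE), adjusted p = 0.00607), and PSMD13, also of the lid, averaged 10.9% in sgCNOT3 and 21.2% in sgNT (log2 difference -0.96 ± 0.15 (SE), adjusted p = 0.0121). Against this direction, the ATPase subunit PSMC3 had 20.8% and 21.6% in sgCNOT3 before the chase and 20.5% and 20.3% after 1 h, against 11.6% and 11.2% in sgNT before it and 13.4% and 11.6% after 1 h (log2 difference 0.78 ± 0.11 (SE), adjusted p = 0.00943). The immunoproteasome subunit PSMB10 was higher as well (log2 difference 0.86), but not without sgCNOT3 0 h replicate 1 or sgCNOT3 1 h replicate 2. PSMA6 (0.39) kept its call in 1 of the 8 fits. With a library left out, 7 to 10 members were lower (7 in 4 of the 8 fits).

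The hnRNP and SR proteins bind pre-mRNA and guide splicing, and 15 of their 39 measured genes were lower (38.5%) and 1 was higher (2.56%), with a median log2 difference of -0.23. HNRNPH1 (ENSG00000169045.18) had 10.7% and 13.8% in sgCNOT3 before the chase and 14.9% and 13.9% after 1 h, against 54.2% and 51.8% in sgNT before it and 52.3% and 48.2% after 1 h (log2 difference -1.94 ± 0.12 (SE), adjusted p = 0.00156), the largest decrease of the list. HNRNPH3 averaged 21.04% in sgCNOT3 and 40.9% in sgNT (log2 difference -0.95 ± 0.11 (SE), adjusted p = 0.00656) and HNRNPM averaged 20.1% in sgCNOT3 and 38.9% in sgNT (log2 difference -0.94 ± 0.11 (SE), adjusted p = 0.00671). SRSF1, SRSF2, SRSF7, SRSF10 and SRSF11 were lower among the SR genes. The polypyrimidine tract binding protein gene PTBP1 was the exception, with 39.1% and 39.3% in sgCNOT3 before the chase and 40.8% and 43.5% after 1 h, against 28.2% and 27.7% in sgNT before it and 29.7% and 32.8% after 1 h (log2 difference 0.46 ± 0.08 (SE), adjusted p = 0.0162). That call was lost without sgCNOT3 1 h replicate 2, sgNT 0 h replicate 2 or sgNT 1 h replicate 1. HNRNPA1L3, also among the 15, is a close copy of HNRNPA1, and its reads may be shared. With a library left out, 10 to 13 members were lower.

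Nuclear transport genes were looked at after their values had been seen, because NUP188 and NUP93 stood near the top. Of 30 measured nucleoporin genes 9 were lower (30%) and 0 higher (2 at an unadjusted p under 0.05), with a median log2 difference of -0.18. The inner-ring scaffold genes NUP93 and NUP188 led, NUP93 with 14.8% and 13.9% in sgCNOT3 before the chase and 14.97% and 15.4% after 1 h, against 55.1% and 52.2% in sgNT before it and 48.6% and 42.8% after 1 h (log2 difference -1.72 ± 0.11 (SE), adjusted p = 0.00156). NUP188 had 6.39% and 7.98% in sgCNOT3 before the chase and 8.26% and 8.64% after 1 h, against 28.1% and 28.5% in sgNT before it and 30.8% and 31.2% after 1 h (log2 difference -1.88 ± 0.12 (SE), adjusted p = 0.00156). NUP133, of the outer ring, averaged 13.9% in sgCNOT3 and 39.2% in sgNT (log2 difference -1.47 ± 0.11 (SE), adjusted p = 0.00265). Of 26 importin and exportin genes 7 were lower (26.9%) and 1 higher (3.85%), with a median of -0.24. IPO5, an importin, had 6.24% and 7.96% in sgCNOT3 before the chase and 9.25% and 9.02% after 1 h, against 21.2% and 23.6% in sgNT before it and 22.1% and 23.2% after 1 h (log2 difference -1.45 ± 0.14 (SE), adjusted p = 0.00447), and CSE1L, the export receptor of importin alpha, averaged 15.9% in sgCNOT3 and 41.3% in sgNT (log2 difference -1.37 ± 0.13 (SE), adjusted p = 0.00437). IPO4 was lower (log2 difference -1.22) and IPO13 higher (1.38), but with a library left out they kept the call in 2 and 3 of 8 fits. The count of lower genes was then 7 to 9 for nucleoporins and 4 to 6 for importins and exportins (7 and 4 without sgCNOT3 1 h replicate 2, sgNT 0 h replicate 1 or sgNT 1 h replicate 1 and in 6 of the 8 fits).

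Genes of translation moved in part. Of 61 translation initiation and elongation factor genes 13 were lower (21.3%) and 2 higher (3.28%), with a median log2 difference of -0.17. EIF3D, the eIF3 subunit that contacts the cap, had 17.9% and 18.4% in sgCNOT3 before the chase and 19.6% and 20.6% after 1 h, against 46.3% and 43.3% in sgNT before it and 45.5% and 41.97% after 1 h (log2 difference -1.20 ± 0.09 (SE), adjusted p = 0.00265). EIF2D, a factor that can deliver tRNA to the 40S subunit, had 6.29% and 10.1% in sgCNOT3 before the chase and 6.94% and 7.45% after 1 h, against 25.9% and 23.2% in sgNT before it and 29.5% and 23.1% after 1 h (log2 difference -1.69 ± 0.18 (SE), adjusted p = 0.00558). EIF3L averaged 14.6% in sgCNOT3 and 28.4% in sgNT (log2 difference -0.95 ± 0.10 (SE), adjusted p = 0.00529). The eIF3 subunit genes did not move as 1 group: EIF3D, EIF3E, EIF3H, EIF3L and EIF3M were lower, while EIF3G averaged 18.1% in sgCNOT3 and 10.6% in sgNT (log2 difference 0.76 ± 0.12 (SE), adjusted p = 0.0118) and EIF3I averaged 19.97% in sgCNOT3 and 13.3% in sgNT (log2 difference 0.58 ± 0.12 (SE), adjusted p = 0.0234). EIF3I kept the call in 1 of the 8 fits with a library left out, and the count of lower factors was then 8 or 9 (8 without sgNT 0 h replicate 1 or sgNT 0 h replicate 2).

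Ribosome biogenesis factors, which process and assemble ribosomal subunits in the nucleolus, had 20 lower and 4 higher genes of 117 (17.1% and 3.42%), with a median log2 difference of -0.09. After BMS1, NOP14, which acts in small subunit assembly, had 14.9% and 14.5% in sgCNOT3 before the chase and 18.6% and 15.4% after 1 h, against 37.6% and 36.4% in sgNT before it and 35.3% and 37.2% after 1 h (log2 difference -1.20 ± 0.11 (SE), adjusted p = 0.00379). BOP1, of large subunit assembly, averaged 3.48% in sgCNOT3 and 12.4% in sgNT (log2 difference -1.82 ± 0.36 (SE), adjusted p = 0.0225), but its replicates ranged from 1.42% to 5.15% in sgCNOT3 and from 7.75% to 16.7% in sgNT, and it kept the call in 4 of the 8 fits with a library left out. The higher genes were DDX49, TSR3, NHP2 and RCL1, with log2 differences from 0.55 to 0.85. The first 3 of them kept the call in 2, 3 and 3 of the 8 fits. The count of lower genes was then 7 to 14 (fewest without sgNT 0 h replicate 1).

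Cytosolic ribosomal protein genes split. Of 85 genes matched by symbol, close relatives such as RPS27L included, 19 were lower (22.4%) and 10 higher (11.8%), both above the shares over all genes, and the median log2 difference was near 0 (-0.0023). Their label was low and their replicates close. RPL5, which joins the 5S RNA in the large subunit, had 16.7% and 17.03% in sgCNOT3 before the chase and 16.8% and 17.3% after 1 h, against 34.9% and 33.4% in sgNT before it and 34.7% and 34.8% after 1 h (log2 difference -1.01 ± 0.08 (SE), adjusted p = 0.00321). RPS10 had 5.34% and 5.78% in sgCNOT3 before the chase and 5.52% and 5.91% after 1 h, against 10.5% and 10.3% in sgNT before it and 10.5% and 10.1% after 1 h (log2 difference -0.84 ± 0.12 (SE), adjusted p = 0.00984). RPS3 averaged 8.40% in sgCNOT3 and 15.1% in sgNT (log2 difference -0.82 ± 0.14 (SE), adjusted p = 0.0155), a call that was lost without sgCNOT3 1 h replicate 1. In the other direction, RPL12 had 23.3% and 23.01% in sgCNOT3 before the chase and 24.98% and 24.7% after 1 h, against 12.5% and 10.4% in sgNT before it and 13.1% and 10.7% after 1 h (log2 difference 1.02 ± 0.12 (SE), adjusted p = 0.00636). RPS27A, whose product is a fusion of ubiquitin and a small subunit protein, had 24.2% and 24.6% in sgCNOT3 before the chase and 25.6% and 24.9% after 1 h, against 13.2% and 12.9% in sgNT before it and 14.2% and 15.6% after 1 h (log2 difference 0.82 ± 0.10 (SE), adjusted p = 0.00671). RPL35 had 5.48% and 5.64% in sgCNOT3 before the chase and 5.34% and 5.67% after 1 h, against 2.80% and 2.12% in sgNT before it and 2.91% and 2.65% after 1 h (log2 difference 1.00 ± 0.15 (SE), adjusted p = 0.0118). The genes of this family have many processed copies in the genome, with which reads may be shared. With a library left out, 4 to 8 genes were lower and 3 to 6 higher (fewest lower without sgCNOT3 1 h replicate 1, fewest higher without sgCNOT3 0 h replicate 1, sgCNOT3 1 h replicate 1 or sgCNOT3 1 h replicate 2).

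The mRNAs of mitochondrial ribosomal proteins had 13 lower and 11 higher genes of 83 (15.7% and 13.3%) and a median log2 difference of -0.03. The study reports that this family is rich in certain arginine codons. It also reports longer half-lives and higher levels of these mRNAs when CNOT3 was depleted. Starting label is another measure than either of these. MRPS5 had 26.2% and 26.7% in sgCNOT3 before the chase and 23.7% and 21.4% after 1 h, against 44.8% and 44.7% in sgNT before it and 41.05% and 40.1% after 1 h (log2 difference -0.80 ± 0.08 (SE), adjusted p = 0.00504). MRPL17 averaged 24.2% in sgCNOT3 and 41.04% in sgNT (log2 difference -0.76 ± 0.10 (SE), adjusted p = 0.00807), and MRPS9 averaged 24.8% in sgCNOT3 and 40.8% in sgNT (log2 difference -0.72 ± 0.14 (SE), adjusted p = 0.0198). Among the higher genes, MRPL55 had 26.3% and 31.9% in sgCNOT3 before the chase and 27.5% and 27.3% after 1 h, against 17.7% and 14.7% in sgNT before it and 15.1% and 16.2% after 1 h (log2 difference 0.81 ± 0.11 (SE), adjusted p = 0.00969). MRPL23 averaged 9.83% in sgCNOT3 and 3.26% in sgNT (log2 difference 1.54 ± 0.28 (SE), adjusted p = 0.0175) and MRPL12 averaged 10.9% in sgCNOT3 and 5.84% in sgNT (log2 difference 0.86 ± 0.17 (SE), adjusted p = 0.0227). MRPS9, MRPL23 and MRPL12 kept the call in 5, 6 and 3 of the 8 fits with a library left out. The counts were then 7 to 12 lower and 1 to 7 higher (fewest lower without sgNT 0 h replicate 2, fewest higher without sgCNOT3 1 h replicate 1). Of 38 mitochondrial translation factor and synthetase genes 5 were lower (13.2%) and 0 higher (3 at an unadjusted p under 0.05), with 3 to 5 lower when a library was left out (3 in 4 of the 8 fits). The elongation factor GFM1 averaged 18% in sgCNOT3 and 37.6% in sgNT (log2 difference -1.05 ± 0.10 (SE), adjusted p = 0.00447), and the isoleucyl-tRNA synthetase IARS2 averaged 16.5% in sgCNOT3 and 42.5% in sgNT (log2 difference -1.35 ± 0.14 (SE), adjusted p = 0.00503). MTRFR, a release factor that rescues stalled mitochondrial ribosomes, was lower too (log2 difference -1.06) and kept the call in 2 of the 8 fits.

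The respiratory chain also held genes of both directions. All 4 measured mRNAs encoded by mitochondrial DNA were higher, which 6.05% of all genes were, with log2 differences from 0.49 to 1.12. After MT-ND4L, the cytochrome c oxidase subunit MT-CO2 had 24.7% and 24.7% in sgCNOT3 before the chase and 23.8% and 27.6% after 1 h, against 17.5% and 16.2% in sgNT before it and 15.01% and 15.3% after 1 h (log2 difference 0.64 ± 0.11 (SE), adjusted p = 0.0137). MT-ATP8, an ATP synthase subunit, had 28.4% and 23.96% in sgCNOT3 before the chase and 23.2% and 31.2% after 1 h, against 13.3% and 11.4% in sgNT before it and 11.1% and 12.1% after 1 h (log2 difference 1.12 ± 0.14 (SE), adjusted p = 0.00726). MT-ATP8 overlaps MT-ATP6 and MT-ND4L overlaps MT-ND4, so reads of such a pair may not be separable. With a library left out 3 or 4 of them were higher (3 in 7 of the 8 fits). Of 38 nuclear complex I subunit genes 4 were lower (10.5%) and 7 higher (18.4%). Leaving out a library gave 3 or 4 lower and 2 to 6 higher (2 without sgCNOT3 1 h replicate 1). Among the lower genes were the accessory subunits NDUFA9 (log2 difference -0.85) and NDUFA10 (-0.75). NDUFA3, another accessory subunit, had 6.73% and 5.96% in sgCNOT3 before the chase and 6.45% and 5.99% after 1 h, against 2.80% and 2.42% in sgNT before it and 3.23% and 3.92% after 1 h (log2 difference 0.96 ± 0.17 (SE), adjusted p = 0.0157), with NDUFB7 (0.88) and NDUFS8 (0.81) also higher. NDUFA3, NDUFB7 and NDUFS8 kept the call in 7, 5 and 4 of the 8 fits with a library left out.

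Of 44 genes of complexes II to V, 9 were lower (20.5%) and 6 higher (13.6%). Without 1 library, 4 to 6 were lower (4 without sgNT 0 h replicate 1 or sgNT 1 h replicate 1) and 3 or 4 higher (3 without sgCNOT3 1 h replicate 1). UQCRC2, a core protein of complex III, had 6.80% and 6.95% in sgCNOT3 before the chase and 6.99% and 8.78% after 1 h, against 23.2% and 19.98% in sgNT before it and 22.7% and 21.7% after 1 h (log2 difference -1.53 ± 0.13 (SE), adjusted p = 0.00321). ATP5MC3, which encodes the membrane ring subunit of ATP synthase, had 14.3% and 13.9% in sgCNOT3 before the chase and 14.7% and 16.1% after 1 h, against 30.8% and 31.3% in sgNT before it and 32.7% and 31.8% after 1 h (log2 difference -1.08 ± 0.09 (SE), adjusted p = 0.00322). SDHC, of complex II, averaged 16.5% in sgCNOT3 and 29.7% in sgNT (log2 difference -0.84 ± 0.13 (SE), adjusted p = 0.0119). Higher in sgCNOT3 was UQCRQ, a small subunit of the same complex as UQCRC2, with 27.7% and 27.4% in sgCNOT3 before the chase and 27.96% and 29.7% after 1 h, against 15.9% and 15.1% in sgNT before it and 16.1% and 13.7% after 1 h (log2 difference 0.88 ± 0.10 (SE), adjusted p = 0.00656). ATP5ME, a small membrane subunit of ATP synthase, averaged 18.1% in sgCNOT3 and 10.8% in sgNT (log2 difference 0.73 ± 0.11 (SE), adjusted p = 0.0122), and ATP5MK averaged 44.6% in sgCNOT3 and 28.8% in sgNT (log2 difference 0.63 ± 0.08 (SE), adjusted p = 0.00725). Subunits of the same enzyme thus lay on both sides. Assembly factors had 4 lower and 2 higher of 53 (7.55% and 3.77%), COA6 among the lower. Their counts were 1 to 3 lower and 0 to 2 higher with a library left out (fewest without sgNT 0 h replicate 1 and without sgCNOT3 1 h replicate 2).

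Mitochondrial import, chaperone and protease genes had 11 lower and 4 higher of 52 (21.2% and 7.69%), with a median log2 difference of -0.05. GRPEL2 led. MIPEP, a peptidase that trims imported proteins, had 4.21% and 5.36% in sgCNOT3 before the chase and 5.20% and 2.10% after 1 h, against 17.5% and 17.8% in sgNT before it and 17.2% and 17.8% after 1 h (log2 difference -2.05 ± 0.27 (SE), adjusted p = 0.00829). The matrix protease LONP1 had 5.48% and 2.74% in sgCNOT3 before the chase and 2.53% and 5.14% after 1 h, against 19.1% and 10.5% in sgNT before it and 21.95% and 17.4% after 1 h (log2 difference -2.05 ± 0.34 (SE), adjusted p = 0.0137). In LONP1 all sgCNOT3 values were at or below 5.48%, and the sgNT values spread from 10.5% to 21.95%. The small translocase chaperone TIMM13 was higher, with 23.3% and 20.8% in sgCNOT3 before the chase and 23.4% and 23.5% after 1 h, against 13.1% and 11.3% in sgNT before it and 14.1% and 14.4% after 1 h (log2 difference 0.77 ± 0.11 (SE), adjusted p = 0.00967). TIMM8B (log2 difference 0.41) and TOMM6 (0.29) were higher by less and lost the call in all 8 fits with a library left out. The count of lower genes was then 7 to 10 (fewest without sgNT 0 h replicate 1, sgNT 0 h replicate 2 or sgNT 1 h replicate 1).

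**Figure D4:**
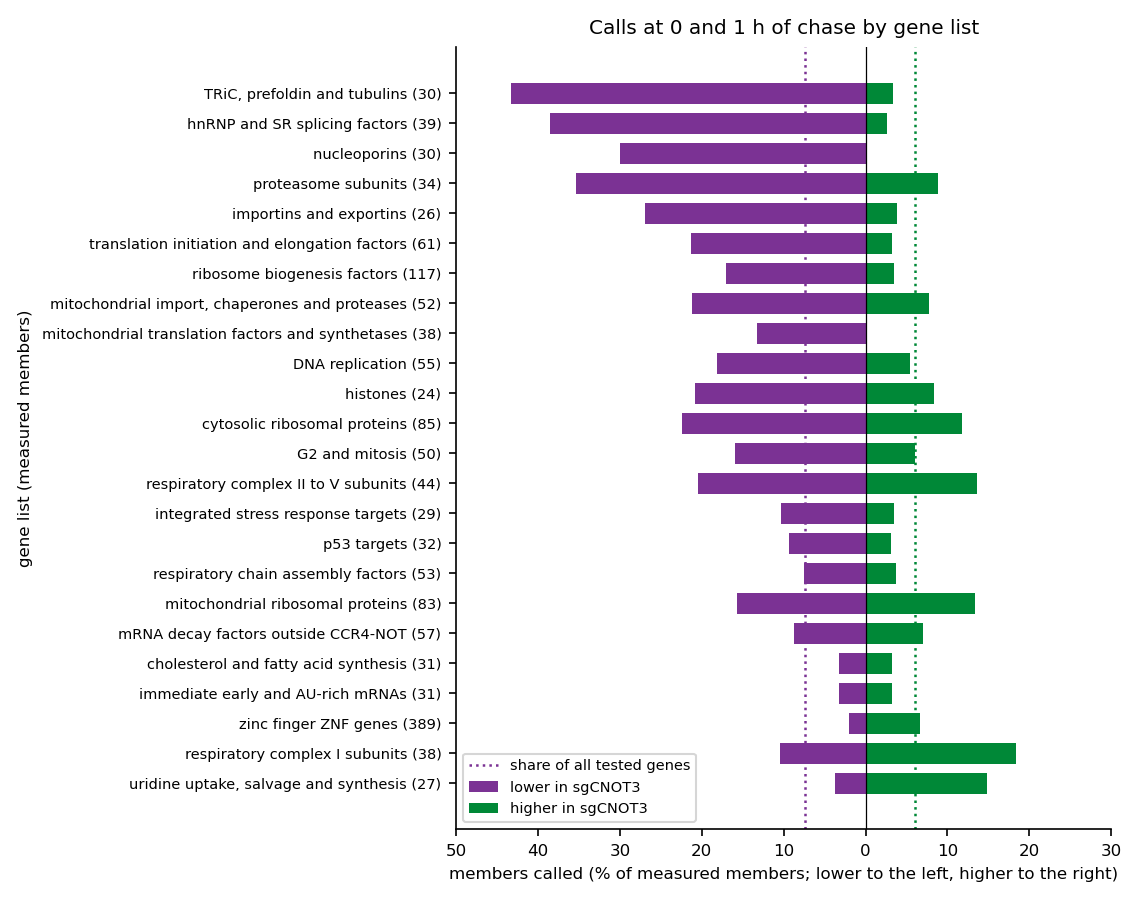
Share of measured members (%) called lower (purple, to the left) or higher (green, to the right) in sgCNOT3 at 0 h and 1 h, for gene lists with at least 20 measured members, given in parentheses. Dotted lines mark the shares over all tested genes, 7.4% and 6.05%; the bars of TRiC, prefoldin and tubulins (43.3% lower) and of hnRNP and SR factors (38.5% lower) reach farthest left.

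Cell cycle genes had lower members among them. Of 55 DNA replication genes 10 were lower and 3 higher (18.2% and 5.45%), with a median log2 difference of 0.02. RPA1, of the single-strand binding complex, had 15.5% and 17.5% in sgCNOT3 before the chase and 21.5% and 19.5% after 1 h, against 51.9% and 47.9% in sgNT before it and 53.9% and 46.3% after 1 h (log2 difference -1.43 ± 0.11 (SE), adjusted p = 0.00293). ORC6, of the origin recognition complex, averaged 18.5% in sgCNOT3 and 34.8% in sgNT (log2 difference -0.90 ± 0.10 (SE), adjusted p = 0.00572), and MCM3, MCM4, MCM6 and MCM7 of the replicative helicase were lower, with log2 differences from -0.57 to -0.43. TIMELESS (-1.24), and on the higher side POLD1 (1.41), RFC2 (0.47) and POLE3 (0.39), kept the call in 0 to 2 of the 8 fits with a library left out. The count of lower genes was then 2 to 6 (fewest without sgNT 0 h replicate 1). RPA1 and ORC6 kept the call in that fit, and the MCM genes did not. Of 50 genes of G2 and mitosis 8 were lower and 3 higher (16% and 6%), with a median log2 difference of -0.08. With a library left out 4 to 8 were lower (4 in 6 of the 8 fits) and 0 to 2 higher (0 in 4 of the 8 fits). The chromosome motor KIF4A had 27.8% and 26.5% in sgCNOT3 before the chase and 24.1% and 31.5% after 1 h, against 50.3% and 50.4% in sgNT before it and 46.8% and 49.6% after 1 h (log2 difference -0.84 ± 0.10 (SE), adjusted p = 0.00725). TOP2A, the topoisomerase of mitotic chromosomes, averaged 27.5% in sgCNOT3 and 53.7% in sgNT (log2 difference -0.98 ± 0.17 (SE), adjusted p = 0.0150), and SGO1, which protects centromeric cohesion, averaged 18.4% in sgCNOT3 and 33.8% in sgNT (log2 difference -0.87 ± 0.14 (SE), adjusted p = 0.0130). Only 24 of 82 histone genes were above 0 in all 8 libraries. Of these 5 were lower (20.8%, against 7.4% of all genes) and 2 higher (8.33%, against 6.05%), with a median log2 difference of 0.14. Leaving out a library gave 2 or 3 lower (2 in 7 of the 8 fits) and 1 to 3 higher (1 in 7 of the 8 fits). MACROH2A1 averaged 17.1% in sgCNOT3 and 30.6% in sgNT (log2 difference -0.83 ± 0.10 (SE), adjusted p = 0.00725), and the linker histone H1-2 averaged 29.6% in sgCNOT3 and 17.6% in sgNT (log2 difference 0.75 ± 0.11 (SE), adjusted p = 0.0118).

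Enzymes of uridine uptake, salvage and synthesis, through which 4-thiouridine can enter RNA precursors, had 1 lower and 4 higher genes of 27 (3.7% and 14.8%). Without 1 library, 0 to 2 were lower (0 in 6 of the 8 fits) and 1 to 4 higher (1 without sgCNOT3 0 h replicate 1 or sgCNOT3 1 h replicate 1). UPRT, a relative of microbial uracil phosphoribosyltransferases, had 55.7% and 70% in sgCNOT3 before the chase and 56.04% and 53.1% after 1 h, against 37.2% and 34.7% in sgNT before it and 28.9% and 22.1% after 1 h (log2 difference 0.95 ± 0.13 (SE), adjusted p = 0.00971). Its order was reversed at 2 h, with 23.4% and 19.9% in sgCNOT3, against 33.8% and 43.9% in sgNT. With depth unknown, the values of UPRT are uncertain. The nucleotidase NT5C averaged 16.2% in sgCNOT3 and 8.30% in sgNT (log2 difference 0.96 ± 0.17 (SE), adjusted p = 0.0166), a call that was lost without sgCNOT3 0 h replicate 1 or sgCNOT3 1 h replicate 1. UCK1, a uridine kinase, was also higher, with a log2 difference of 0.49. RRM1, of ribonucleotide reductase, was lower (-0.58) and NME4 higher (0.57), in 2 and 1 of the 8 fits. These are labels of the mRNAs, and the amounts of the enzymes were not measured here.

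Zinc finger ZNF genes, most of which encode transcription factors, had few lower calls, and their share of higher calls was near that of all genes. Of 508 listed genes, 389 were above 0 in all 8 libraries, and of these 8 were lower and 26 higher (2.06% and 6.68%, against 7.4% and 6.05% of all genes). Their median log2 difference was 0.28, against 0.08 over all genes. ZNF619 had 50% and 60% in sgCNOT3 before the chase and 35.7% and 31.2% after 1 h, against 29.2% and 29.9% in sgNT before it and 9.09% and 9.38% after 1 h (log2 difference 1.35 ± 0.20 (SE), adjusted p = 0.0115). ZNF281, which was lower, had 25.5% and 24.97% in sgCNOT3 before the chase and 21.4% and 22.4% after 1 h, against 48.9% and 43.2% in sgNT before it and 43.6% and 39.3% after 1 h (log2 difference -0.88 ± 0.09 (SE), adjusted p = 0.00479). The scatter between sgCNOT3 libraries was wide in ZNF619 and narrow in ZNF281. ZNF674 (log2 difference 1.29) and ZNF324B (1.19) were higher, and ZNF227 (-0.76) and ZNF410 (-0.64) lower, in 1 or 2 of the 8 fits with a library left out. The counts were then 1 to 5 lower and 11 to 16 higher (fewest lower without sgNT 0 h replicate 1, fewest higher without sgCNOT3 1 h replicate 1 or sgNT 0 h replicate 1).

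The label in sgNT, the sequence at the 3' end and the calls varied together. In the quartile of genes with the least label in sgNT, 4.64% were lower and 12.4% higher, and in the quartile with the most, 9.75% were lower and 1.31% higher. As the sgNT level enters the difference, this order is a description and no test. The last 250 bases of the transcript, near which 3' end libraries read, had a median T content of 33.2% in lower genes, 28.8% in higher genes and 32% in genes not called. In the quartile of genes with the fewest T there, 4.72% were lower and 10.3% higher, against 6.81% and 4.29% in the quartile with the most. The Spearman correlation of this T content was 0.436 with conversion in sgCNOT3, 0.539 with conversion in sgNT and -0.135 with the log2 difference, across 11280 genes. The GC content of the coding sequence had medians of 49.5% in lower, 55.5% in higher and 51.4% in not called genes. The part of base composition in the calls was not tested. Median coding lengths were 1308 bases in lower, 1164 in higher and 1365 in not called genes.

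The study ties CNOT3 recruitment to the arginine codons CGG, CGA and AGG. It scored mRNAs with each codon weighted by its enrichment in CNOT3-bound ribosomes, and compared changes in half-life. Here the share of these codons is unweighted, and starting label is another measure than half-life. Among the 1000 tested genes with the largest share of these codons, 88 were lower (8.8%) and 77 higher (7.7%), against 726 (7.26%) and 573 (5.73%) of the other 9995 with at least 300 coding bases. The median log2 difference was 0.10 in the codon-rich set and 0.08 in the others. The median conversion of the codon-rich set was 31.3% in sgCNOT3 and 29.6% in sgNT, and that of the other genes was 36.1% in sgCNOT3 and 34.7% in sgNT. The median coding GC content was 60.4% in the set and 50.4% in the others.

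Libraries from 2 h to 12 h, which had no part in the calls, showed how the called genes went on. One of them stood apart: over all tested genes the median at 2 h was 29.2% and 18.4% in the sgCNOT3 replicates, against 22.6% and 23.4% in sgNT. At 2 h, 138 of the 835 lower genes were again lower (16.5%, against 1.38% of all genes) and 0 were higher (1 at an unadjusted p under 0.05, limma). A difference below 0 was seen in 89.9% of them, against 47.1% of all genes. Of the 683 higher genes, 38 were again higher (5.56%, against 0.576% of all genes) and 0 were lower (1 at an unadjusted p under 0.05). A difference above 0 was seen in 73.4% of them, against 52.9% of all genes. The counts rested on every 2 h library. The lower genes that were lower again numbered 52 and 51 without sgCNOT3 2 h replicate 1 or 2, and 26 and 2 without sgNT 2 h replicate 1 or 2. For the higher genes the counts were 9, 2, 4 and 0 in the same order, and 22 to 25 without an 8 h library of either genotype. With library medians set equal they were 1 and 0 (260 and 84 at an unadjusted p under 0.05).

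Over 2 h to 12 h the log2 conversion of 204 of the lower genes (24.4%) fell less steeply in sgCNOT3 than in sgNT, or rose there, against 8.44% of all genes, and the reverse was called in 1. The size of the slope difference was not larger in them, with a median of 0.0721 log2 units per h in lower genes, 0.0557 in higher genes and 0.0788 over all tested genes. Of the higher genes 14 (2.05%) had such a slope difference. A slope above 0 was fitted in sgCNOT3 for 83 lower genes (9.94%, against 10.9% of all genes). In sgNT it was fitted for 12 lower genes (1.44%, against 3.77% of all genes). After 2 h the median of the lower genes was 21.1% and 20.6% in sgCNOT3, against 29.3% and 30.1% in sgNT. It was 18.7% and 18.8% in sgCNOT3 after 4 h, against 27.3% and 25.9% in sgNT. After 8 h the libraries came together, with 15.2% and 15.8% in sgCNOT3, against 15.6% and 15.98% in sgNT. After 12 h it was 9.15% and 10.5% in sgCNOT3, against 8.97% and 8.45% in sgNT. For the higher genes, the median at 12 h was 8.53% and 9.78% in sgCNOT3, against 4.69% and 4.35% in sgNT. Among the named lower genes, the slope was higher in sgCNOT3 for COA6 (slope difference 0.36 ± 0.03 log2 units per h, SE, limma adjusted p = 2.25e-04). GRPEL2 had 0.38 ± 0.04 (adjusted p = 7.46e-04) and CCT8 0.05 ± 0.02 (adjusted p = 0.101). In sgCNOT3 some of the 12 lower genes by moderated t gained label during the chase. GRPEL2 reached 29.3% and 31.4% and RDH11 28.3% and 30.6% at 8 h. PUS3 stood at 30.4% and 36.1% at 4 h. COA6 reached 31.9% and 33.4% and TMEM223 15.4% and 16.2% at 12 h. BMS1, NUP188, NUP93, HNRNPH1, CCT8, DHRS1 and EIF3D had lost label by 12 h. LSM1 and MRPL17, lower genes outside these 12, also gained label in sgCNOT3. LSM1 stood at 49.2% and 45.5% at 4 h and MRPL17 at 32.7% and 33.5% at 8 h. Whether starting label reflects turnover in the genes that gained label was not tested. Without sgCNOT3 2 h replicate 2 the 204 became 119, and without sgNT 12 h replicate 2 they became 128. Centring each library on its median left 14, beside 63 over all genes, and 136 genes then had a lower slope in sgCNOT3.

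**Figure D5:**
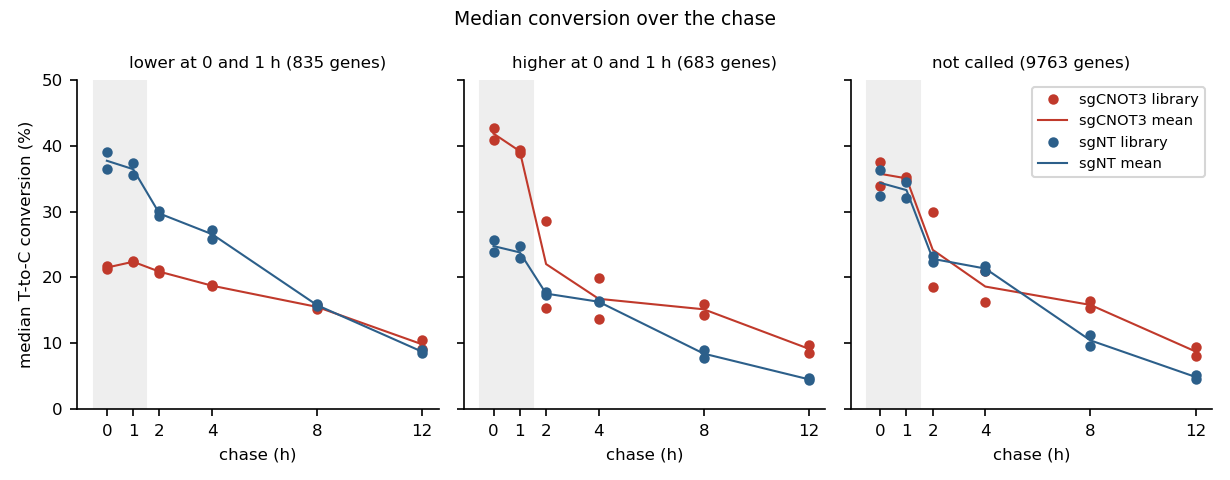
Median conversion (%) against chase time (h) for the genes lower (left), higher (middle) and not called (right) at 0 h and 1 h, the times shaded in grey; points are libraries and lines join the means of the 2 libraries of a genotype. The lower genes start at 21.3% and 21.7% in sgCNOT3 and 39.0% and 36.5% in sgNT and meet at 8 h, and in the middle panel sgCNOT3 replicates part at 2 h, with 28.6% and 15.4%.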

How the data were processed

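SLAM-seq libraries of HEK293T cells were made with a QuantSeq 3' FWD kit. For each gene and library the authors deposited the ratio of T-to-C conversion as a fraction from 0 to 1, shown here as a percentage. Notes of the submitters name GRCh38 and bcl2fastq. Aligner, conversion caller, annotation and whether reads or T positions were counted: not given in the sources used here. Read counts behind the ratios were not analysed here, which leaves depth unknown and counting intervals out of reach. Groups came from sample titles. Nothing in the labels tells whether replicates came from separate cultures. The p-values thus reflect only the spread between libraries, which may be technical.

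Genes at 0 in any of the 8 libraries were left out, since a 0 can mean that no read was present. Of the 11281 genes kept, 1 is a second copy shared by X and Y, and 7 symbols are repeated. Log2(conversion + pseudocount) was fitted with limma 3.58.1 (R 4.3.3, trend on, two-sided) with chase time and genotype. The pseudocount was 1% of the median 0 h conversion (0.343 percentage points), and log2 differences (sgCNOT3 minus sgNT) understate changes of genes near 0. Adjustment was by Benjamini-Hochberg across the 11281 genes (threshold 0.05). The 16 libraries at 2 h to 12 h were fitted separately, as slopes and as group means. The model was tested on simulated data. Library medians were compared by an exact permutation test.

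Genes named are CNOT3, the 12 lower and 12 higher called genes with the largest moderated t and one sign at both times and in both replicate numbers, and up to 3 lower and 3 higher called members of a list by size of difference. Other called members, CNOT1, CNOT4, CNOT7, CNOT11 and TNKS1BP1 are named as examples chosen after their values were seen. Members, lists and tests were chosen with earlier results of these data known, and the nuclear transport lists after these values were seen. An item withheld from the text is not reported here.

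GENCODE release 44 (11280 genes matched) gave positions, exons and canonical transcripts. Coding lengths leave out the stop codon. Guides came from the study's oligonucleotide table and were searched on both strands of GRCh38 with an NGG motif. Python 3.11.15, numpy 2.4.6, pandas 2.3.3, scipy 1.17.1 and matplotlib 3.10.9 were used.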

Additional observations from a re-analysis of the deposited data

How the results depend on the processing

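Limits: each genotype and time had 2 libraries, depth is unknown, and genes near 0 or 100% carry no counting error that could be given. Of 132 genes named by the rule, 2577 of 3279 values under the alternatives stayed on the same side of the threshold, 702 lost the call and 0 reversed. All 24 genes named by moderated t and 77 of the 132 kept the call in each fit with 1 of the 8 libraries left out. These genes were chosen by their calls in the same libraries, so the counts are no independent test.

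Counts of lower and higher genes moved by less than 1.5 times from 835 and 683 under no pseudocount or 10% of the median, a logit or untransformed scale, the filters on genes at 0 or on mean conversion (the one at most 60% was added after seeing the data), centring, quantile normalization (1172 and 534), limma without trend or with robust estimation. With all 24 libraries in the fit they were 735 and 262 (73.7% of calls lower). Limma on 0 h or 1 h libraries alone called 0 and 0 (1004 and 1228 at an unadjusted p under 0.05 at 0 h, 924 and 1146 at 1 h), with 2 libraries a group. Leaving out 1 library gave 380 to 560 lower and 229 to 403 higher genes. A lone library was then assumed to vary like the other groups. The interaction count was 0 as reported and 55 with genes above 0 in at least 6 of 8 libraries. The difference of medians was 0.0705 to 2.00 percentage points without 1 library. The cause of these moves was not tested.

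Gene by gene, same-numbered libraries did not deviate together (correlations of -0.035 to 0.028 over 6 pairs of groups). These correlations cannot show a shift of whole libraries. In both genotypes at 0 h and at 1 h the median of replicate 1 was above that of replicate 2. A pairing by number therefore stays possible. With a replicate block for the number the counts were 744 and 584, and with a block for each of 4 pairs within chase time 302 and 205.

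At 2 h, 138 lower and 38 higher genes were called again, and 204 and 14 had a higher slope in sgCNOT3. With 10% of the median as pseudocount the last was 5. Centring gave 1, 0 (84 at an unadjusted p under 0.05), 14 and 3. Without sgCNOT3 2 h replicate 2 they were 51, 2, 119 and 8. Leaving out any 1 of the 16 later libraries, 15 of them added after seeing the data, gave 2 to 144, 0 to 43, 119 to 246 and 7 to 21. The 0 came without sgNT 2 h replicate 2 (155 at an unadjusted p under 0.05).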

Other observations

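Of 29 measured integrated stress response targets 3 were lower in sgCNOT3 (10.3%, against 7.4% of all genes) and 1 was higher (3.45%, against 6.05%). ASNS, the asparagine synthetase, had 37.5% and 38.5% in sgCNOT3 before the chase and 34.1% and 36.8% after 1 h, against 21.6% and 21.7% in sgNT before it and 24.1% and 23.5% after 1 h (log2 difference 0.68 ± 0.09 (SE), adjusted p = 0.00856), and it was the member that rose. The amino acid transporter subunit SLC3A2 had 36.1% and 37.8% in sgCNOT3 before the chase and 31.8% and 34.7% after 1 h, against 52.5% and 49.4% in sgNT before it and 51.2% and 49.03% after 1 h (log2 difference -0.52 ± 0.08 (SE), adjusted p = 0.0122). CEBPG (log2 difference -0.64) and MTHFD2 (-0.42) were lower and kept the call in 3 and 1 of the 8 fits with a library left out. With a library left out 1 or 2 of the targets were lower and 1 or 2 higher. Of 32 p53 targets 3 were lower (9.38%) and 1 higher (3.12%), with 0 to 2 lower and 0 or 1 higher when a library was left out. Of 31 immediate early and AU-rich mRNAs 1 was lower and 1 higher (3.23% each), with 0 or 1 each when a library was left out. Of 31 genes of cholesterol and fatty acid synthesis 1 was lower and 1 higher (3.23% each), with 0 lower and 0 or 1 higher when a library was left out. The median log2 differences of the 4 lists lay between -0.10 and -0.0029.

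Genes at 0 in some libraries were not tested, and they were unevenly spread. Above 0 in all 4 sgCNOT3 libraries and at 0 in at least 1 sgNT library were 841 genes, 74 of them at 0 in all 4 sgNT libraries. The reverse held for 416 genes, 5 of them at 0 in all 4 sgCNOT3 libraries. Over the 74 genes the median of the sgCNOT3 means was 53.1%. These genes were picked by their values in both genotypes, so this level is a description and no test. Over the whole table, 5949 to 6530 genes were at 0 in a sgCNOT3 library, against 6633 to 7139 in a sgNT library. SPTLC3, which encodes a subunit of serine palmitoyltransferase, had 5.41% and 10.1% before the chase and 5.71% and 2.44% after 1 h in sgCNOT3 and was listed at 0 in sgNT. Among the 5, CCSER1 was listed at 0 in sgCNOT3 and had 71.4% and 66.7% before the chase and 44.4% and 72.7% after 1 h in sgNT. Both were chosen after their values were seen.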
